A study of Mus musculus with 2 samples.

Results

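Nr5a1 encodes steroidogenic factor 1 (SF-1), and its transcript models were drawn from long-read RNA sequencing of mouse adrenal gland by taking every model that the deposited tables assign to this gene. There were 45 such models among 130376 in replicate 1 and 57 among 118745 in replicate 2. The models were then grouped by their first exon, their intron chain (the ordered set of introns of a spliced model) and their 3′ end. The series holds 1 group of 2 libraries, numbered in the labels as biological replicates 1 and 2, and no second condition. Both were prepared from 1 µg of total RNA from adrenal glands of female B6CASTF1/J mice, an F1 hybrid strain, aged 18 to 20 months. The labels name no allele, transgene or treatment beyond the strain. Each library has its own biosample but both carry the same donor entry, so separate animals are not settled here. Every test below compares these libraries, and its p-value covers counting error only, apart from edgeR's exact test. The dispersion in that test comes from the same 2 libraries, so it does not measure the spread between animals.

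SF-1 is a nuclear receptor that binds DNA as a single molecule and drives the genes of steroid hormone synthesis in the adrenal cortex. It is needed for the adrenal glands and gonads to form. Its coding sequence begins in exon 2, so transcripts that use different first exons can encode the same protein. Exons 2 and 3 encode the zinc fingers that bind DNA, and the exons after them encode the hinge and the ligand-binding domain.

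On mm10 with the GENCODE M21 annotation, Nr5a1 (ENSMUSG00000026751.14) lies on the minus strand at chr2:38692656-38714542. Nr5a1-201 has 7 exons and 2947 bases and opens with a noncoding exon of 186 bases, called the distal first exon here. Nr5a1-202 also has 7 exons, with 2994 bases, and opens 2308 bases downstream of the Nr5a1-201 start with a noncoding exon of 229 bases, the proximal first exon. Both join the same exon 2 and encode the same 462 codons. Nr5a1-203 is an annotated retained-intron transcript of 4 exons and 2069 bases, which opens in an exon 2 extended upstream by 416 bases.

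The alternatives meet at the start of exon 2, 15 bases ahead of the start codon, and the junctions below show what each one places there. Each sequence is 30 bases of the RNA-sense strand from GENCODE M21 transcripts on GRCm38/mm10. The capitals mark the 12 bases ahead of exon 2, which differ, and the lower-case letters are exon 2 up to its start codon.
Nr5a1-201, distal first exon: TCCTTCCGTTCAgcggacgccgcgggcatg
Nr5a1-202, proximal first exon: CGCGGCCAAAAGgcggacgccgcgggcatg
New donor inside Nr5a1-202 exon 1: CCCGGGTCCCAGgcggacgccgcgggcatg
Nr5a1-203, extended exon 2: CTCCTTCCACAGgcggacgccgcgggcatg

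In the distal and proximal forms the capitals end at a splice donor, at chr2:38714357-38714368 for the distal exon and chr2:38712006-38712017 for the proximal one. In the extended form, at chr2:38710773-38710784, exon 2 was not preceded by a splice, so the capitals are the bases left in the RNA and they end in AG. The sequence of the new donor belongs to a donor that the annotation does not hold, at chr2:38712158-38712169, which lies inside the proximal exon 152 bases ahead of its annotated donor. The 10 bases on each side of that donor, chr2:38712148-38712167, are shown next, with the retained exon bases in capitals and the removed bases in lower case, beginning with gt.
New donor site: CGGGTCCCAGgtgcgcctcg

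The libraries held 1478362 reads in replicate 1 and 1007541 reads in replicate 2 on all models, of which 1412947 and 933963 fell on annotated genes. Levels are given as CPM, the reads of a gene scaled to the reads on all annotated genes, and a count of 0 allows up to 3 reads, which is 2.12 CPM in replicate 1 and 3.21 CPM in replicate 2. Intervals are exact 95% intervals, Poisson for CPM and Clopper-Pearson for shares, and cover counting error only. Copies made by PCR, where present, are not independent molecules. Each long read counts once whatever its length, so levels carry no length correction. All 6 adrenal cortex markers were detected in both libraries and took 7.23% of the gene reads of replicate 1 and 7.14% of those of replicate 2. The 5 medulla markers took 1.20% and 0.941%. Of 12 genes that mark gonad or pituitary gonadotropes, other cells that use SF-1, 2 were detected in both libraries. The list held 29 reads in replicate 1 and 7 in replicate 2. Foxl2 held 25 of those in replicate 1, or 17.7 CPM, and 1 of those in replicate 2. The anti-Müllerian hormone gene Amh, the hormone subunit genes Cga, Lhb and Fshb, the receptor gene Fshr and Sox9 were at 0 in both. Skeletal muscle markers, 3 of 3 genes, held 631 reads in replicate 1 and 0 reads in replicate 2, and the 5 adipocyte markers took 0.513% and 0.365% of gene reads. Among the adipocyte markers, Ucp1 (1687 and 602 CPM) and Plin1 (452 and 245 CPM) differed most. Cfd (2227 and 2103 CPM) and Fabp4 (488 and 483 CPM) lay close in the 2 libraries.

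Nr5a1 was among the most abundant genes in both libraries. It had 1457 reads in replicate 1, or 1031 CPM (interval 979 to 1086), where it ranked 95 of 16227 genes detected. In replicate 2 it had 1499 reads, or 1605 CPM (interval 1525 to 1688), and ranked 47 of 15565. The mean was 1318 ± 406 CPM (SD, n = 2). After TMM scaling, the level in replicate 1 was 0.672 times that in replicate 2 (interval 0.625 to 0.723). That difference passed an exact binomial test between the libraries (Benjamini-Hochberg adjusted p = 8.58e-25), as did 12.5% of the 11068 genes tested. It did not pass edgeR's exact test, which uses the dispersion between these libraries (common biological coefficient of variation 21.6%). That dispersion was estimated from the same 2 libraries that are compared, so the differences under test enter it. With 1 library on each side, that test cannot decide whether the Nr5a1 difference exceeds the spread between animals. Bulk RNA cannot tell fewer cortical cells from less Nr5a1 RNA per cell. The part in this difference of the muscle and adipocyte reads, which were higher in replicate 1, was not tested.

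By distance on the log2 CPM scale over the 2 libraries, the annotated gene whose level lay nearest to Nr5a1 was the phosphate carrier gene Slc25a3, at a distance of 0.19. Slc25a3 stood at 1079 CPM in replicate 1 and 1421 CPM in replicate 2. The next were the transketolase gene Tkt, the pyruvate carboxylase gene Pcx, the RNA helicase gene Ddx5 and the microsomal glutathione transferase gene Mgst1, at distances between 0.27 and 0.33. Over 2 libraries this likeness describes level alone.

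Most Nr5a1 reads sat on few intron chains. Counting all single-exon models as 1 chain, there were 44 chains in replicate 1 and 56 in replicate 2, or 69 in all. The 31 shared chains were 70.5% of those in replicate 1 and 55.4% of those in replicate 2, but they held 98.7% and 98.1% of the reads. All 15 chains with at least 5 reads in a library were found in both, and no chain found in a single library had more than 4 reads. Models of 1 read took 1.72% of Nr5a1 reads in replicate 1 and 2.33% in replicate 2.

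**Figure D1:**
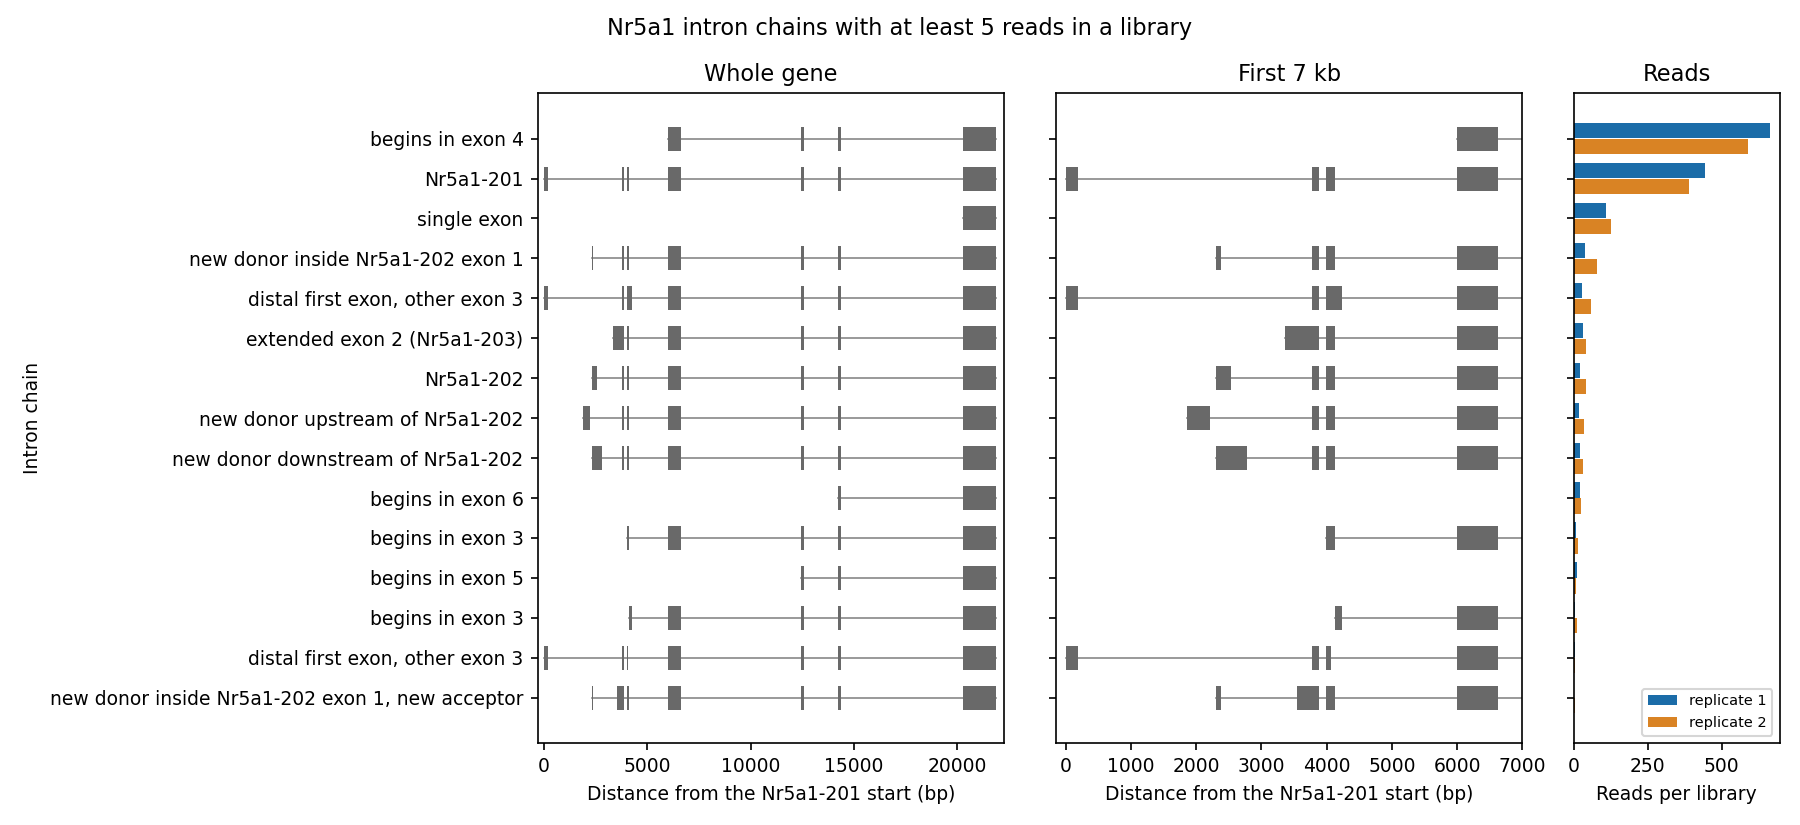
Exons (boxes) and introns (lines) of the 15 Nr5a1 intron chains with at least 5 reads in a library, ordered by reads, against distance from the Nr5a1-201 start in base pairs; the middle panel enlarges the 5′ part, and bars give reads in replicate 1 (blue) and replicate 2 (orange). Starts are those of the replicate 2 models and all chains are drawn to the Nr5a1-201 end; the exon 4 chain (663 and 590 reads) and Nr5a1-201 (444 and 388 reads) lead, and 4 chains besides Nr5a1-202 open near its first exon.

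The chain with most reads was not a full-length transcript. It ran from exon 4 to exon 7 and held 663 reads in replicate 1 and 590 in replicate 2, 469 and 632 CPM. In both libraries this chain is labelled an incomplete splice match, here a run of annotated introns, of the suffix kind, which lacks the 5′ part. The same label also covers some models with a new splice site or with no intron. Its models span 1142 of the 1386 coding bases, or 82.4%, and lack the 244 in exons 2 and 3, where the zinc fingers are encoded. Nr5a1-201, the second chain, held 444 reads in replicate 1 and 388 in replicate 2, 314 and 415 CPM. Nr5a1-202 was much rarer, with 20 and 40 reads, 14.2 and 42.8 CPM. Nr5a1-203 had 0 reads under its own identifier in both libraries, which allows up to 3 reads in each.

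Single-exon models of the last exon held 109 reads (replicate 1) and 125 reads (replicate 2). The deposited tables label them differently, as a genomic model of 542 bases in replicate 1 and as an incomplete splice match of 1609 bases in replicate 2. In all, 8 of the 31 shared chains carried another class label in the second library, so the class shares below depend on labels that are not fixed to a structure. Genomic models took 7.55% of Nr5a1 reads in replicate 1, with 109 of their 110 reads on that model, and 0.133% in replicate 2.

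The model starts fell in steps along the gene. Models beginning in or upstream of exon 4 held 90.0% of reads in replicate 1 and 89.3% in replicate 2. Models beginning in or upstream of exon 3 held 43.6% (interval 41.0 to 46.2) and 49.4% (interval 46.8 to 51.9). For exon 2 the shares were 42.6% and 47.8%, and for the distal first exon 33.2% and 31.0%. The large step in both libraries is therefore at exon 4, the 629-base exon, where 670 and 598 reads had their model start, against 9 and 7 reads at exon 5 and 21 and 26 at exon 6. Models of this kind have 1 start for all their reads, and 72.1% of new Nr5a1 models in replicate 1 and 85.5% in replicate 2 started at an annotated exon edge. Across new spliced models of other genes the figure was 94.5% in both libraries. Single-exon models are counted in the Nr5a1 figures and left out of that one. The position inside exon 4 at which single reads began is therefore not recorded in these files.

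**Figure D2:**
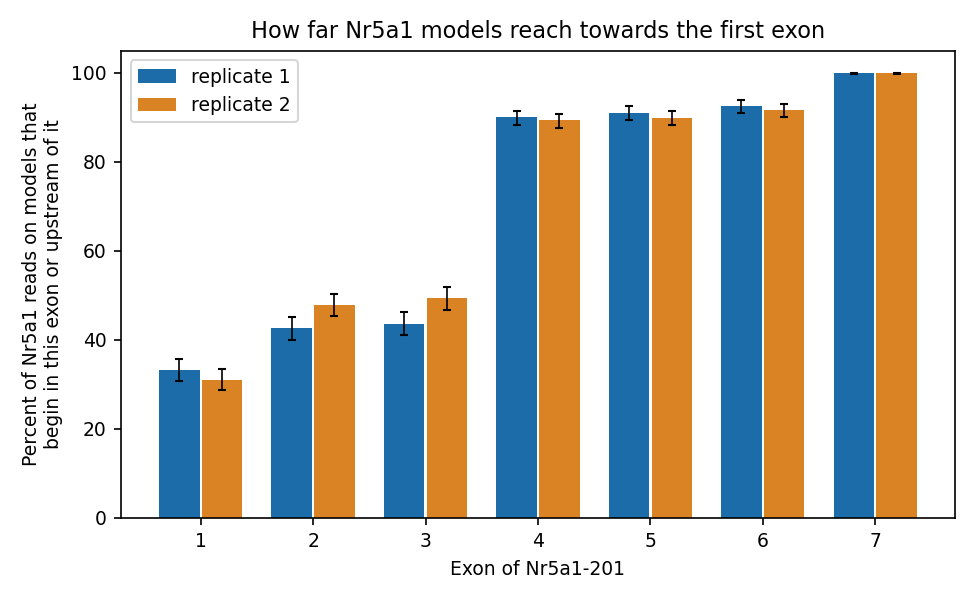
Percent of Nr5a1 reads, in replicate 1 (blue) and replicate 2 (orange), on models that begin in each exon of Nr5a1-201 or upstream of it, with exact 95% intervals as error bars. In both libraries the share stands near 90% at exons 4 to 6, at 100% at exon 7 by construction, and below 50% at exons 1 to 3.

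The share of suffix matches was high beside that of other measured genes. They took 50.8% of Nr5a1 reads in replicate 1 and 46.2% in replicate 2, against medians of 3.85% and 4.18% over the 6412 other genes that had 20 or more reads per library. Nr5a1 lay at percentile 96.7 of those genes in both libraries. Among the 1425 of them whose main annotated transcript has 2500 to 3500 bases, it lay at percentile 98.7 in replicate 1 and 98.5 in replicate 2. Known models, whose whole chain is annotated, took 31.8% and 28.6% of Nr5a1 reads, against medians of 80.3% and 76.9% in the other genes. With Nr5a1 counted in, the leading chain was a Known model in 5585 of 6413 genes and a suffix match in 188, or 2.93%, of which Nr5a1 is 1. These are descriptions over genes, with no test.

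The share of the leading exon 4 to 7 chain was 45.5% in replicate 1 and 39.4% in replicate 2, a mean of 42.4 ± 4.35% (SD, n = 2). This difference passed Fisher's exact test (two-sided, Benjamini-Hochberg adjusted p = 0.0413), as did 2.21% of 6413 genes. When all genes with 10 or more reads per library were tested it did not (adjusted p = 0.0532). The share of Known models differed by 3.29 points, which did not pass (Fisher's exact test, adjusted p = 0.487, background 1.86% of genes). The first splice donor used most, that of exon 4, began the chain of 49.7% of spliced reads in replicate 1 and 43.3% in replicate 2 (Fisher's exact test, adjusted p = 0.0751, background 0.978% of 5727 genes).

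Chains whose models carry all annotated coding exons, exactly spliced, held 581 reads in replicate 1 and 629 in replicate 2, 39.9% and 42.0% of Nr5a1 reads. Among them the distal first exon opened 448 of 581 reads in replicate 1 (77.1%, interval 73.5 to 80.5) and 392 of 629 in replicate 2 (62.3%, interval 58.4 to 66.1). First exons of the proximal region opened 99 (17.0%) and 196 (31.2%). Models with their start at the extended exon 2 held 34 (5.85%) and 41 (6.52%). That start is an annotated edge, so whether each of these reads reached the start codon is not known. On the CPM scale, full coding chains with the distal exon stood at 317 and 420 CPM, and those with proximal exons at 70.1 and 210 CPM. Both values were larger in replicate 2, and the difference in the choice of first exon was tested at the exon 2 acceptor.

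The choice of first exon was read at the exon 2 acceptor, where a spliced read shows which donor it joins. The distal donor was joined by 479 of 580 reads in replicate 1, 82.6% (interval 79.2 to 85.6). In replicate 2 it was joined by 459 of 658 reads, 69.8% (interval 66.1 to 73.2). The difference of 12.8 points passed Fisher's exact test over all acceptors with alternative donors (two-sided, adjusted p = 5.56e-05). In that test 0.451% of 2439 acceptors passed, 11 in all. This test was added after the models had been seen, and it passed with 1-read models left out, with nearby sites pooled and with other read minimums (adjusted p between 3.74e-05 and 0.000354). Leaving out incomplete matches is no support here, since it drops the chain with the downstream proximal donor, described below, from replicate 1 alone, where the label differs. It compares 2 libraries only, so the spread between animals is not known from it.

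**Figure D3:**
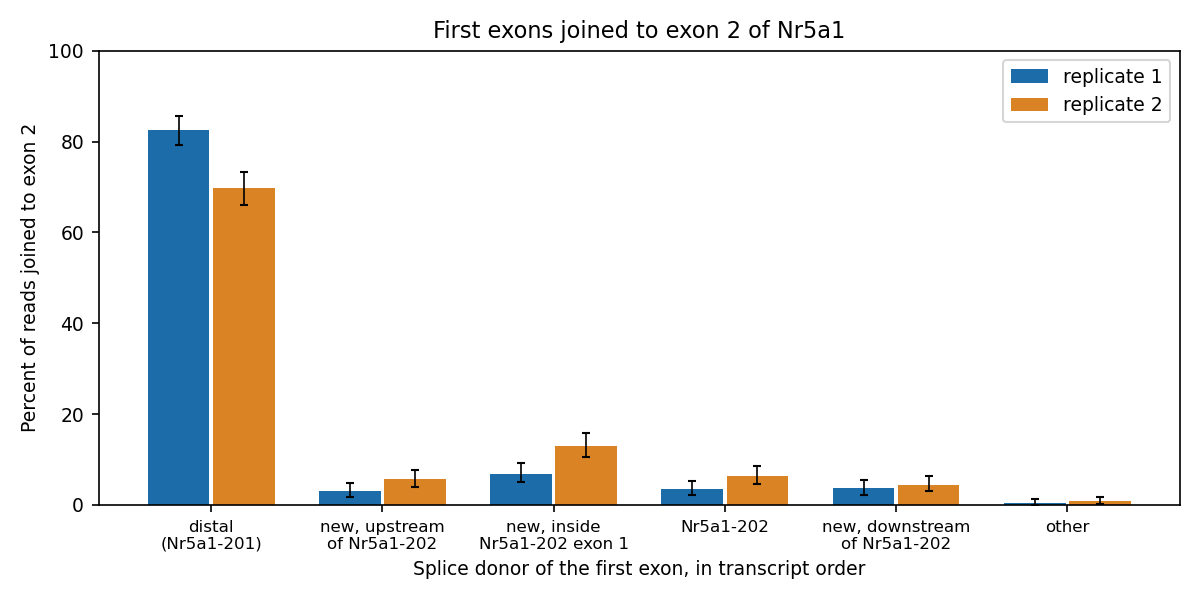
Percent of reads joined to the annotated exon 2 acceptor of Nr5a1 by splice donor, in replicate 1 (blue, 580 reads) and replicate 2 (orange, 658 reads), with exact 95% intervals as error bars. The distal donor leads at 82.6% and 69.8%, and each proximal donor stands higher in replicate 2.

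Most proximal reads did not use the annotated proximal donor. Nr5a1-202's donor was joined by 20 reads in replicate 1 (3.45%) and 42 in replicate 2 (6.38%). The new donor inside that exon, whose junction is printed above, was joined by 40 reads (6.90%, interval 4.97 to 9.27) and 86 reads (13.1%, interval 10.6 to 15.9). It shortens the proximal exon by 152 bases. A second new donor lies 244 bases downstream of the annotated one, with the last exon base at position 38711762, and was joined by 21 reads (3.62%) and 29 reads (4.41%). Another lies 101 bases upstream of the Nr5a1-202 start, at position 38712335, and was joined by 18 reads (3.10%) and 37 reads (5.62%). The remaining donors had 2 and 5 reads. Donors absent from the annotation together took 81 of 580 reads in replicate 1, 14.0%, and 157 of 658 in replicate 2, 23.9%.

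Each of these 4 proximal donors was seen in both libraries, and each had a larger share in replicate 2. The donors were not tested one by one. The chain with the donor inside the exon and otherwise annotated splicing held 39 reads in replicate 1 and 79 in replicate 2, more in each library than Nr5a1-202 itself. The chain with the downstream donor had 20 and 29 reads, and that with the upstream donor 17 and 34. The upstream chain had its model start 1731 bases from the Nr5a1-201 start in replicate 1 and 1866 bases in replicate 2. These positions, 38712811 and 38712676, are both edges of an exon of the antisense gene Nr5a1os on the plus strand, so they do not locate a transcription start.

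Some models with their start at the extended exon 2 of Nr5a1-203 reached exon 7, although Nr5a1-203 itself had no read. A chain opening there and running through exons 3 to 7 held 32 reads in replicate 1 and 41 in replicate 2, 22.6 and 43.9 CPM. Its start is the annotated edge, so the length of the exon before the acceptor was not measured on single reads. Reads that began within exon 2 itself cannot be told apart from reads that hold the extension. A further acceptor lies 230 bases upstream of exon 2, at position 38711002, with 7 of 587 reads in replicate 1 (1.19%) and 12 of 670 in replicate 2 (1.79%). The chain that joins it to the distal first exon had 4 and 2 reads, and the chain that joins it to the new donor inside Nr5a1-202 exon 1 had 1 and 5. The site lies at chr2:38710993-38711012. The removed bases are in lower case and the added exon bases in capitals.
New acceptor site before exon 2: ttgttctcagACAAACGAAT

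Exon 3, which encodes the second zinc finger, also ended at more than 1 place. The annotated donor was used by 594 of 638 reads in replicate 1, 93.1%, and by 653 of 737 in replicate 2, 88.6%, which did not pass Fisher's exact test (adjusted p = 0.200). A donor 108 bases downstream, with the last exon base at position 38710302, was used by 35 reads (5.49%, interval 3.85 to 7.55) and 74 reads (10.04%, interval 7.97 to 12.4). The added stretch is a multiple of 3, 36 triplets, and its sequence was not read here, so whether it holds a stop codon is not known.

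A donor 60 bases inside exon 3 was used by 3 reads in replicate 1 and 7 in replicate 2. It removes 20 codons in frame, the bases in capitals in exon 3 below (142 bases, chr2:38710410-38710551, minus strand), which begin with GT. The chain that joins it to the distal first exon had 3 and 5 reads.
Nr5a1 exon 3: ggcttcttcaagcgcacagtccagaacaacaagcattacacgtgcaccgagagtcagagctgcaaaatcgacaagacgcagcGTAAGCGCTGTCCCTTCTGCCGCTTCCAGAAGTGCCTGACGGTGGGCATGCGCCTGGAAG

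Long reads show which exon 3 went with which first exon. With the distal first exon, the longer exon 3 was found in 27 of 482 reads in replicate 1, 5.60% (interval 3.72 to 8.05), and in 59 of 463 in replicate 2, 12.7% (interval 9.84 to 16.1). With proximal first exons it was found in 2 of 102 reads, 1.96% (interval 0.238 to 6.90), and in 4 of 206, 1.94% (interval 0.532 to 4.90). The difference between the forms was not tested. The full chain with the distal first exon and the longer exon 3 had 26 and 59 reads, so it outnumbered Nr5a1-202 in replicate 1, at 26 against 20 reads, and in replicate 2, at 59 against 40. A suffix chain that begins in exon 3 and carries the longer form added 5 and 10 reads.

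**Figure D4:**
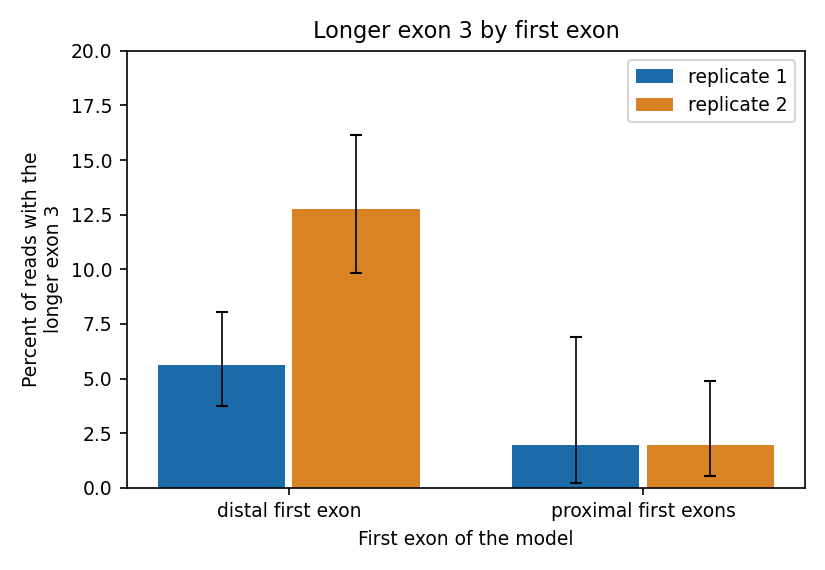
Percent of reads with exon 3 ending 108 bases downstream of its annotated donor, for models that open with the distal first exon (482 reads in replicate 1, 463 in replicate 2) and with proximal first exons (102 and 206 reads), with exact 95% intervals as error bars. The share is highest for the distal form in replicate 2, at 12.7%, and near 2% for proximal forms in both libraries.

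Downstream of exon 4 the splicing varied little. Introns 4, 5 and 6 were removed in 89.7%, 90.8% and 92.0% of Nr5a1 reads in replicate 1 and in 88.6%, 89.1% and 91.1% in replicate 2, where the remainder is mostly reads whose models begin further downstream. At the exon 5 acceptor, the exon 4 donor was used by 99.3% and 99.5% of reads, with Fisher's exact test adjusted p = 1. The last acceptor, that of exon 7, was used by 99.3% of spliced reads in replicate 1 and 99.4% in replicate 2 (Fisher's exact test, adjusted p = 1, background 0.244% of 5727 genes). Intron 5 was retained in 1 and 5 reads, and an intron of 649 bases within exon 7, which begins with GT and ends with AG, was removed in 3 and 2 reads. An added exon inside intron 6 had 2 reads in replicate 1 and 0 in replicate 2. Suffix chains beginning in exon 5 had 9 and 7 reads, those in exon 6 had 20 and 24, and the one in exon 3 with annotated splicing had 8 and 13.

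Over the whole gene there were 51 introns, of which 7 are annotated and 44 are not. Of the new ones, 16 were found in both libraries, 6 had at least 5 reads in a library and 22 rested on 1 read in all. Bases from annotated transcripts were at hand for 10 of 27 new donors and 11 of 17 new acceptors. Of these donors 9 began with GT and 1, seen in 1 read, with GC, and all 11 acceptors ended with AG. The donors upstream and downstream of Nr5a1-202 exon 1 and the later exon 3 donor were not among them.

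The 3′ ends show a limit of the models. Reads on models that ended at an annotated end, 38692656 or 38692660, were 54.3% of Nr5a1 reads in replicate 1 and 99.7% in replicate 2. Nearly the whole difference lay in the exon 4 to 7 chain, whose 1 model in replicate 1 ended at 38692111, 545 bases beyond the Nr5a1-202 end, and whose model in replicate 2 ended at 38692656. All 663 reads of that chain carry the end of their model, so no share of reads with a longer 3′ end can be taken from it.

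On the opposite strand, models of a new antisense gene lay over the last exon of Nr5a1 and beyond it, with 15 reads in replicate 1 and 20 in replicate 2. Of the 15, 14 were on a single-exon model and 1 on a model of 2 exons. Nr5a1os, the annotated antisense gene at the 5′ end, had 2 reads in replicate 1, on models that reach into the Nr5a1 span, and 1 read in replicate 2, on a model that does not. No model of another gene on the same strand lay within the span in either library. The antisense reads were thus few beside the 1457 and 1499 reads of Nr5a1.

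SF-1 is known to act on genes of cholesterol delivery and steroid synthesis. The list of 20 SF-1 targets used here also holds hormone, receptor and regulator genes. Of the 20, 17 were detected and 14 had enough reads to test. The exact binomial test with TMM scaling called 5 higher in replicate 1 and 5 lower. Of all genes tested, 6.95% were called higher and 5.53% lower in replicate 1. That test covers counting error only, so whether a ratio passes depends on the reads of the gene. The target Cyp11a1 passed at fold 1.09, with 27214 reads in replicate 1 and 17278 in replicate 2. Nr0b1, at fold 1.08 with 61 and 39 reads, did not pass. The background was not matched to the targets by reads, so these percentages cannot show whether targets differ more than other genes. The same holds for the lists below. The median log2 ratio of replicate 1 over replicate 2 was 0.07 for the 14, beside 0.05 for all genes tested. Nr5a1 itself was lower in replicate 1, and its targets did not share 1 direction.

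Cyp11a1, which encodes the enzyme that cleaves the cholesterol side chain, stood at 19260 CPM in replicate 1 and 18500 CPM in replicate 2 (fold 1.09, adjusted p = 2.34e-16). Cyp11b1, whose enzyme makes corticosterone, stood at 20398 and 13534 CPM (fold 1.58). Star, whose product moves cholesterol into mitochondria, stood at 8352 and 12540 CPM (fold 0.696, adjusted p = 5.17e-165). Cyp21a1, the 21-hydroxylase gene, stood at 15598 and 17939 CPM (fold 0.909), and its direction reversed with ERCC spike-in scaling (log2 ratio -0.14, against 0.16 with the spike-ins). With spike-in scaling, 8 targets were called higher and 4 lower in replicate 1. Of all genes tested, again not matched by reads, 20.0% were called higher and 2.36% lower. The direct SF-1 antagonist gene Nr0b1 (DAX-1) stood at 43.2 and 41.8 CPM and did not pass (adjusted p = 0.942). Amh, Cga and Lhb, targets of gonad and pituitary, were at 0 in both libraries.

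**Figure D5:**
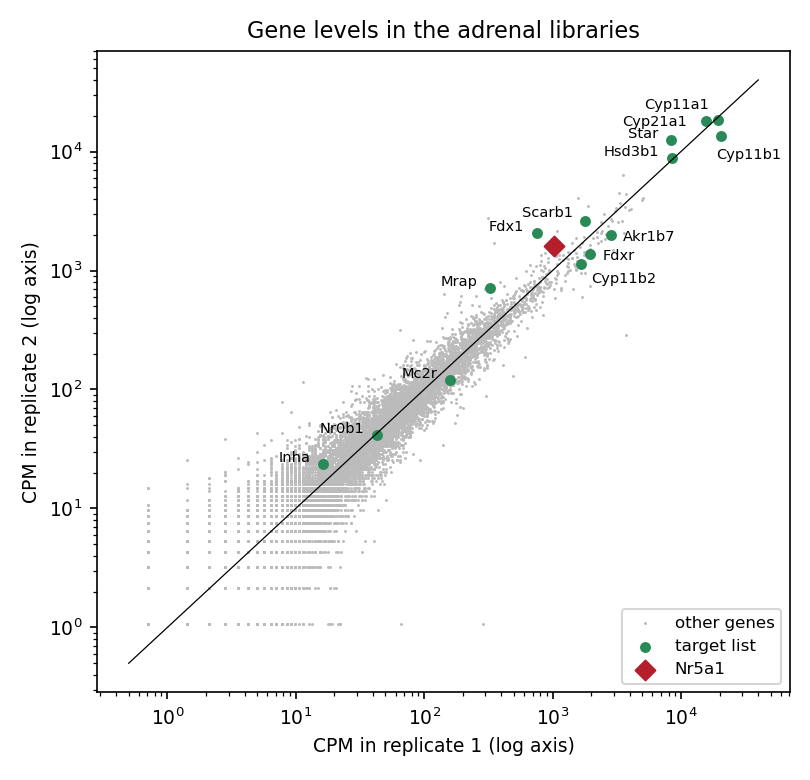
CPM in replicate 1 against replicate 2 on log axes for genes with reads in both libraries, with Nr5a1 as a red diamond, the 14 genes of the target list detected in both in green and equality as a line. Nr5a1 lies above the line at 1031 and 1605 CPM, while targets such as Cyp11b1 (20398 and 13534 CPM) lie below it and Star (8352 and 12540 CPM) above it.

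Genes known as partners, modifiers or regulators of SF-1 were detected at lower levels. Of 32 on the list, 28 were detected and 23 tested, with 1 called higher and 3 lower in replicate 1 and 19 not called. Of all genes tested, 6.95% were called higher and 5.53% lower in replicate 1, 12.5% in either direction. Nr4a1, an orphan nuclear receptor gene, stood at 316 CPM in replicate 1 and 232 CPM in replicate 2 and was the member called higher (fold 1.42, exact binomial test, adjusted p = 0.000393). Ctnnb1, which encodes beta-catenin, stood at 214 and 248 CPM and did not pass (adjusted p = 0.551). The coactivator gene Cited2 and the kinase gene Hipk3 were among the 3 lower in replicate 1 and are named after their values were seen. With spike-in scaling 6 were called higher and 2 lower in replicate 1, against a background of 20.0% and 2.36%. Hipk3 had 6 reads in replicate 1 and 22 in replicate 2. The related receptor gene Nr5a2 (LRH-1) and the developmental factor genes Lhx9, Emx2 and Sox9 were at 0 in both libraries.

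Genes around the locus had fewer reads than Nr5a1 in both libraries. Of 10 gene symbols listed as neighbours, 9 were detected, 6 were tested and 1 was called. That was the ribosomal protein gene Rpl35, lower in replicate 1 at 329 CPM against 437 CPM in replicate 2 (exact binomial test, adjusted p = 0.00684). Of all genes tested, 5.53% were called lower. With spike-in scaling Rpl35 did not pass (adjusted p = 0.818), and Nek6 did, higher in replicate 1 (adjusted p = 0.00881). The proteasome subunit gene Psmb7 stood at 74.3 and 92.1 CPM, the actin nucleation gene Arpc5l at 14.9 and 23.6 CPM and the kinase gene Nek6 at 20.5 and 7.49 CPM, and none of these passed with TMM scaling. Nr6a1, another nuclear receptor gene beside the locus, had 0 reads in replicate 1 and 1 in replicate 2. Adgrd2-ps had 1 and 0 reads. No model carried the symbol Gpr144-ps, and whether the annotation holds a separate gene of that name was not checked.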

How the data were processed

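Long-read RNA was sequenced from 2 adrenal libraries. Per the file headers, the deposited values are raw counts of reads per transcript model on mm10 with GENCODE M21, and field names are those of TALON. Which aligner, TALON version and filters were used is not given in the sources used here. The authors' tables list models with at least 1 read. Counts were summed per annotated gene, and ERCC spike-ins (1.24% and 1.54% of reads) were left out. Model structures came from each library's annotation, matched between libraries by intron chain. Known models carry annotated ends.

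Gene levels were compared by an exact binomial test after TMM scaling (factors 0.978 and 1.02) for genes with at least 10 reads, and isoform shares by Fisher's exact test where both libraries had 20 or more reads. The donor test took acceptors with at least 20 reads in each library and 10 on minor donors. Adjustment was by Benjamini-Hochberg at 0.05. A quasi-likelihood fit has no residual degrees of freedom with 1 library against 1. Log2 ratios used a prior of 0.5 reads.

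The members, gene lists and tests were chosen with earlier results of these data known. The naming rule took every Nr5a1 model of at least 5 reads, annotated Nr5a1 transcripts also at 0, the 4 most abundant members of each list with members at 0, and the 5 genes nearest to Nr5a1 in level. Nr0b1, Cited2, Hipk3, Nr6a1, Adgrd2-ps, the markers Foxl2, Ucp1, Plin1, Cfd and Fabp4, and rarer splice forms were named after their values were seen. Some list members that the rule takes are not reported here. Steps were tested on counts simulated with counting error only, which cannot show how they behave under a spread between libraries. Software was Python 3.11.15 with matplotlib 3.10.9, statsmodels 0.14.6, scipy 1.17.1, pandas 2.3.3 and numpy 2.4.6, then DESeq2 1.42.0 and edgeR 4.0.16 in R 4.3.3. The seed was 20261.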

Additional observations from a re-analysis of the deposited data

Results flagged for a closer look

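Reads opposite Nr5a1 lie outside the gene's own counts. Models of a new antisense gene over the last exon and beyond it held 15 reads in replicate 1 and 20 reads in replicate 2. Both counts are above the 3 reads that a count of 0 allows. The strand of these reads is as the deposited models give it.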

How the results depend on the processing

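Of 109 alternative values, 84 kept their direction and their side of the threshold, or for counts stayed within 1.5 times. CPM values, and shares from a single library, were counted as kept when within the SD of the main mean. With 2 libraries the value of either library alone always lies within that SD, so those among the 84 are no support. Nr5a1 was lower in replicate 1 under every scaling tried, with adjusted p between 1.19e-30 and 1, the last from edgeR's exact test (log2 ratio -0.57, 28 genes called). ERCC scaling moved the median log2 ratio of all genes to 0.33, against 0.05 with TMM, and the Nr5a1 ratio to -0.28, with 2471 genes called, 2210 higher and 261 lower in replicate 1, against 769 and 612 with TMM. It called 8 of the partners and regulators, 6 higher and 2 lower in replicate 1. Known models alone gave 393 CPM. The main isoform became Nr5a1-201 without incomplete splice matches (60.5%, adjusted p = 0.178, 240 genes called) and with Known models only (93.2%, adjusted p = 0.435, 11 genes called). With at least 10 reads its share was unchanged at 42.4% and did not pass. The first donor became the distal one without incomplete matches (75.1%, Fisher's exact test adjusted p = 2.18e-06, 23 genes called), a value that lacks the downstream-donor chain in replicate 1 only, Known models alone called 8 genes, and with at least 50 reads the 46.5% share passed (adjusted p = 0.0490). Counting reads within 50, 100 or 200 bp of an annotated end gave 77.0% with adjusted p = 1.09e-234, which rests on the end of 1 model. The last acceptor test called 7 genes without incomplete matches, 3 with Known models and 6 at 10 reads. The Known share reversed to 40.2% in replicate 1 against 45.1% in replicate 2, mean 42.7%, when new splice combinations and sites were added. It passed Fisher's exact test without genomic models (31.5%, adjusted p = 0.0366), with 1347 reads left in replicate 1 and 1497 in replicate 2. That pass is no support, since the single-exon model of the last exon is dropped from replicate 1 alone, where the label differs. Without incomplete matches 258 genes were called for the Known share. The donor test called 19 acceptors without 1-read models and 27 without incomplete matches. The causes of these changes were not tested. No paired analysis was possible because the series has 1 group.

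With 2 libraries and no second condition, counting intervals on 580 to 737 reads span a few points and do not cover the spread between libraries, which differed by 12.8 points in the distal donor share. Donors with under 10 reads are not comparable between libraries. Model ends are not read ends, and the separateness of the animals is not settled.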
